A study of Mus musculus with 6 samples.

Results

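Genes with a Gpr symbol were read out by RNA sequencing in Ocy454 cells, a mouse osteocytic cell line. Members were chosen by name alone, as the rows of the expression table whose symbol is Gpr followed by a number and at most a letter and a further digit. The rule found 93 rows with 92 symbols among 39179 listed genes, because Gpr45 was listed under 2 Ensembl identifiers, of which the second was at 0 reads in all 6 libraries. At the depth of these libraries 23 of the 93 rows reached a usable level, and 3 genes were called as changed. Gpr153 rose after PTH, Gpr176 fell after both treatments, and Gpr133 rose after YKL-05-093. Both calls after PTH held under 15 of 16 settings, those after YKL-05-093 under 14 for Gpr176 and 11 for Gpr133. The 16 include the main fit and the same fit without the limit on the fold change. In the latter a call of the main fit cannot be lost.

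The cells of all 3 groups came from a single cell subclone of Ocy454, grown to confluence and then kept for 14 days at 37 °C. For 4 h they received vehicle (PBS with HCl, per the labels), 1 nM PTH 1-34, the amino-terminal fragment of parathyroid hormone, or 0.5 µM YKL-05-093, a small molecule that inhibits the salt-inducible kinases (SIKs). The question of the experiment was how far SIK inhibition changes the same genes as PTH. The compound is not specific to SIKs, and the paper reports that it also acts on other kinases in vitro. In cells with SIK genes silenced, the paper reports SIK-dependent responses to the compound for most of the genes it measured. Some of them still responded. Whether the changes after the compound described here depend on SIKs was not tested. Each group has 2 libraries, labelled as duplicates, so p-values measure the spread between these libraries, which may be technical. The labels give 1 vehicle for all groups, while the study's methods give DMSO as the solvent of the compounds in cell culture. Whether the vehicle libraries received DMSO is not stated, and an effect of the solvent cannot be told apart from that of the compound.

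G-protein-coupled receptors cross the membrane several times and pass signals from hormones, lipids, ions and matrix proteins to heterotrimeric G proteins. Gpr symbols were given to genes that looked like such receptors before a ligand was known, so many of them are still orphans. The name also covers membrane proteins outside the main receptor classes, such as the Golgi proteins Gpr107 and Gpr108 and the Golgi pH regulator Gpr89. The receptor for PTH itself, Pth1r, is a G-protein-coupled receptor that raises cAMP, and bone cells are known for strong cAMP signalling through it.

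Levels are given as RPKM, reads scaled by gene length and library size, so they can be compared between genes. The library totals recovered from the values lay between 17505798 and 27983585 reads, and 3 reads on a gene of 2000 bases correspond to 0.0536 to 0.0857 RPKM. The vehicle libraries stood apart from each other more than the treated ones. The median absolute log2 difference between the 2 libraries of a group, over 14264 genes that passed the level limit, was 0.333 in the vehicle group, 0.108 in the PTH group and 0.103 in the YKL-05-093 group. For the 23 members it was 0.275, 0.112 and 0.0586. In these bulk samples, fewer cells with a transcript and less RNA per cell cannot be told apart.

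Of the 93 rows, 23 (24.7%) reached 0.5 RPKM in 2 or more libraries, the level limit for testing. The same limit was passed by 36.4% of all listed genes and by 52.9% of 21303 protein-coding genes. Each of the 23 had over 3 reads in all 6 libraries, with 40 to 2867 reads in a library, and none met the limit in libraries of a single group. A further 17 rows (18.3%) were under the limit but had over 3 reads in every library of at least 1 group. In 44 rows (47.3%) the reads were fewer, and 9 rows (9.68%) had 0 reads in all 6 libraries, among them Gpr1, Gpr12, Gpr27, Gpr55, Gpr6, Gpr143, Gpr171 and the second identifier of Gpr45. A count of 0 allows up to 3 reads in each library, so these rows were not detected at this depth, which covers counting error only.

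The level differed by class of protein. Of 63 rhodopsin-like receptors, the class that holds most hormone and neurotransmitter receptors, 8 passed the limit and 8 were at 0. Of 17 adhesion receptors, which carry long extracellular parts and mostly a self-cleaving domain, 7 passed and 0 were at 0. Of 10 rows for other membrane proteins, 8 passed, and of 3 class C receptors, 0 passed. The names of the adhesion receptors are the older ones. All 17 now begin with Adgr, the prefix by which this class was assigned.

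**Figure D1:**
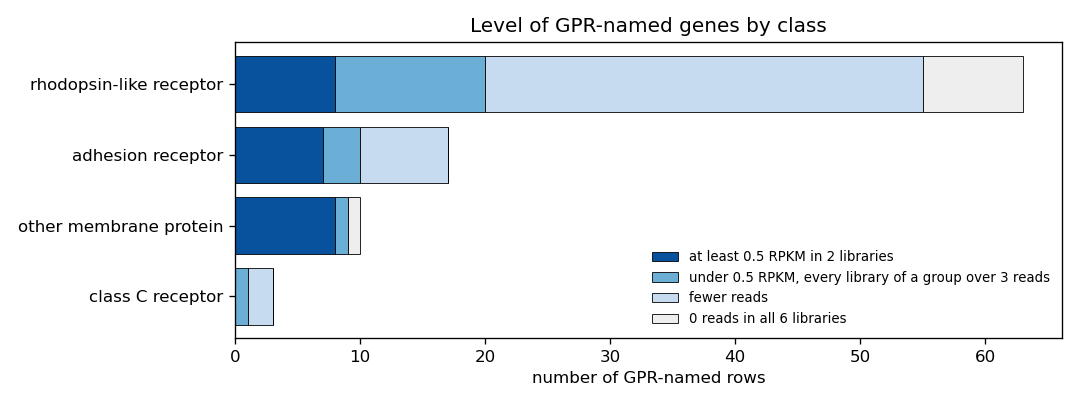
Number of GPR-named rows in each class of protein, on the horizontal axis, split by level over the 6 libraries. Rhodopsin-like receptors make up 63 of the 93 rows and 8 of the 23 that passed, while 8 of 10 rows of other membrane proteins passed.

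An adhesion receptor had the highest mean level of all members over the 6 libraries. Gpr124 (Adgra2), a co-activator of Wnt7 signalling with Reck, had 29.8 and 22.5 RPKM with vehicle, 19.4 and 19.4 with PTH, and 19.5 and 20.3 with YKL-05-093. Its relative Gpr125 (Adgra3) had 21.0 and 16.6 RPKM with vehicle, 21.9 and 21.0 with PTH, and 17.6 and 18.3 with YKL-05-093. Both treated pairs of Gpr124 lay below the vehicle pair, which itself spanned the widest range of the 3. The log2 fold change of Gpr124 was −0.41 (SE 0.19, limma, adjusted p = 0.418) for PTH and −0.38 (SE 0.19, adjusted p = 0.678) for YKL-05-093. Gpr116 (Adgrf5), known for the control of lung surfactant, had a mean of 2.03 RPKM over the 6 libraries, and Gpr126 (Adgrg6), which is needed for myelination by Schwann cells, had 1.75. Gpr56 (Adgrg1), a receptor in cortical development that binds collagen III, had 0.787 RPKM, and Gpr64 (Adgrg2), known from the epididymis, had 0.672. Gpr133 (Adgrd1), with 1.80 RPKM, is described with the responses.

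Among the membrane proteins outside the receptor classes, Gpr108 was the highest. It had 17.9 and 19.3 RPKM with vehicle, 21.0 and 20.5 with PTH, and 19.7 and 20.5 with YKL-05-093. Its Golgi relative Gpr107 had a mean of 7.96 RPKM, with all 6 libraries between 7.52 and 8.40. Gpr180, first named for intimal thickening of vessels, had a mean of 11.8 RPKM. The lysosomal proteins Gpr137 and Gpr137b had means of 4.76 and 2.53 RPKM, and Gpr155, a lysosomal protein that binds cholesterol, had 0.763. Gpr89 had 2.33 RPKM and Gpr157 had 1.05. Gpr143, the ocular albinism protein of pigment cells, was at 0 in all 6 libraries.

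Rhodopsin-like receptors that passed were mostly orphans. Gpr153 had the highest level of the class (18.1 RPKM over the 6 libraries), and its relative Gpr162 had 0.880. Gpr161, a receptor of the primary cilium that restrains Hedgehog signalling, had 7.27 and 4.69 RPKM with vehicle, 4.88 and 4.27 with PTH, and 4.54 and 5.19 with YKL-05-093, so the groups overlapped. Gpr19, an orphan, had a mean of 3.72 RPKM. Gpr176, an orphan receptor with a role in the circadian clock of the suprachiasmatic nucleus, had 3.38. Gpr146, which acts on plasma cholesterol through the liver, had 2.61 RPKM, Gpr35, a receptor of gut and immune cells, had 1.31, and Gpr173, of the same small family as Gpr27 and Gpr85, had 0.519. Gpr173 was the member nearest above the limit, and Gpr39 was the nearest below it by mean, with 0.217 RPKM. In neighbouring ranks the ranges often overlapped, as for Gpr108 and Gpr125, and their order is then within the spread of the libraries.

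**Figure D2:**
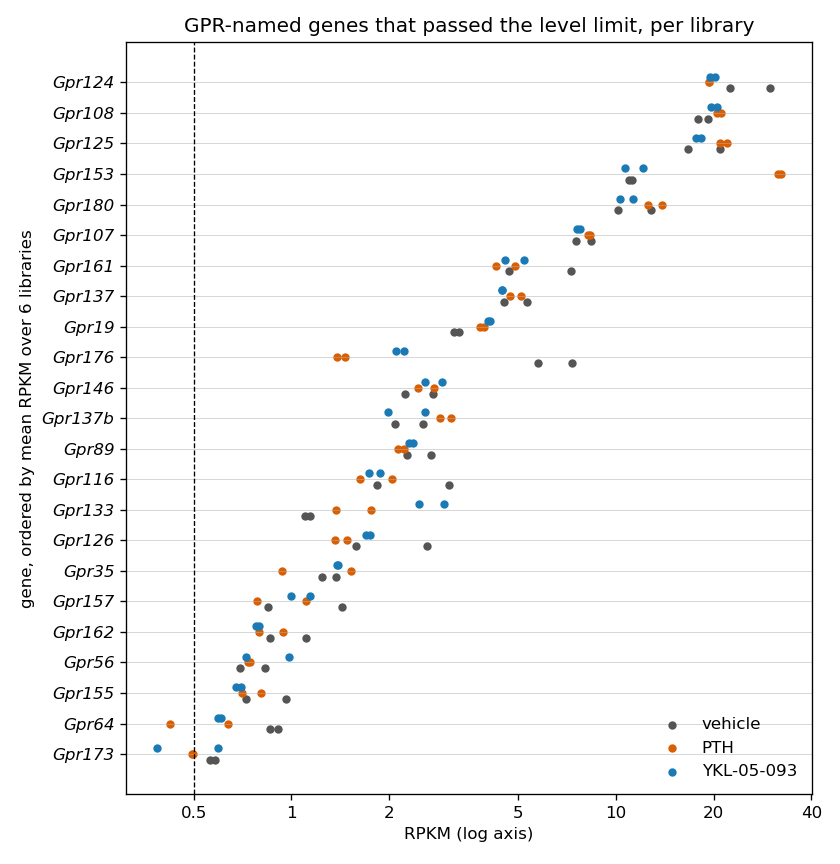
RPKM of the 23 GPR-named genes that passed the level limit, on a log axis, with 1 point per library, coloured by group, and genes ordered by their mean over 6 libraries. The dashed line marks the limit of 0.5 RPKM. Gpr153, Gpr176 and Gpr133 are the genes with the mean of a treated pair over 2-fold from that of the vehicle pair.

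Each comparison was tested with limma on log2(RPKM + 0.1) over all genes that passed, with Benjamini-Hochberg adjustment. Calls needed an adjusted p under 0.05 and a change over 2-fold, and all fold changes from the fit are on this log2 scale. An exact permutation test of 2 libraries against 2 cannot give a two-sided p below 0.333. For PTH against vehicle 2 of 23 members were called, beside 1.9% of 14261 genes tested. Of them 1 was higher, beside 1.09% of genes, and 1 was lower, beside 0.813%. For YKL-05-093 against vehicle 2 of 23 were called, beside 0.666% of 14255 genes. Here too 1 was higher, beside 0.393%, and 1 was lower, beside 0.274%. For PTH against YKL-05-093 it was 1 of 23, beside 1.21% of 14255 genes. This 1 was higher after PTH, beside 0.744% of genes, and 0 were lower, beside 0.47%. Both comparisons with vehicle use the same vehicle libraries.

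Gpr153 responded to PTH. It is an orphan rhodopsin-like receptor (ENSMUSG00000042804), and its gene lies on the plus strand of GRCm38 at chr4:152274232-152285337. The vehicle libraries had 11.2 and 11.0 RPKM (11.1 ± 0.200, SD, n = 2), from 772 and 1203 reads. The PTH libraries had 32.2 and 31.5 RPKM (31.9 ± 0.479), from 2731 and 2360 reads. The YKL-05-093 libraries had 10.7 and 12.2 RPKM (11.4 ± 1.03), from 851 and 989 reads. Both PTH libraries stood far above the other 4, and the YKL-05-093 pair enclosed the vehicle pair. The mean was 2.87 times that of vehicle after PTH and 1.03 times after YKL-05-093. In the fit, Gpr153 rose after PTH by 1.51 (SE 0.16, adjusted p = 0.00488, limma). For YKL-05-093 the log2 fold change was 0.04 (SE 0.16, 95% interval −0.34 to 0.41, adjusted p = 0.974), an interval that holds no 2-fold change. The difference between the treatments was tested without the vehicle libraries, and Gpr153 was higher after PTH by 1.48 (SE 0.07, adjusted p = 3.45e-09). Without vehicle replicate 1 or 2, the change after PTH was 1.53 or 1.50. With no level limit its adjusted p for PTH was 0.0575.

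Gpr176 (ENSMUSG00000040133), on the minus strand at chr2:118277110-118373419, fell after both treatments. It couples to an inhibitory G protein and lowers cAMP in clock neurons. The vehicle libraries had 7.35 and 5.73 RPKM (6.54 ± 1.14), from 501 and 625 reads. The PTH libraries had 1.46 and 1.39 RPKM (1.42 ± 0.0531), from 123 and 103 reads. The YKL-05-093 libraries had 2.23 and 2.10 RPKM (2.17 ± 0.0872), from 176 and 170 reads. The 3 groups did not overlap, with vehicle highest and PTH lowest. The vehicle mean was 4.59 times the PTH mean and 3.02 times the YKL-05-093 mean. Gpr176 fell by 2.11 after PTH (SE 0.18, adjusted p = 0.00238, limma) and by 1.54 after YKL-05-093 (SE 0.18, adjusted p = 0.0236). Between the treatments the log2 difference was −0.57 (SE 0.14, adjusted p = 0.0128, range over settings 0.00256 to 0.229, PTH lower), which is under 2-fold and was not called. The vehicle pair differed by more than the treated pairs, and without vehicle replicate 1 or 2 the changes were −1.94 or −2.29 for PTH and −1.36 or −1.72 for YKL-05-093. With no level limit the adjusted p was 0.0587 for PTH and 0.178 for YKL-05-093, and with the spread set by the mean value it was 0.0945 for YKL-05-093. An exon of Gpr176 overlaps Gm29232 on the same strand in the GENCODE annotation, and Gm29232 was not among the listed genes.

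Gpr153 and Gpr176 moved in opposite directions after PTH, and the 250 bases before their most upstream RefSeq start are shown. RefSeq holds a second start of Gpr153 just downstream, whose window also has no match and is not shown. PTH acts through cAMP, and the binding motif of the cAMP-responsive factor CREB was searched on both strands, as TGACGTCA and as its shorter form TGACG, which every TGACGTCA also contains. Neither sequence below holds a match, and therefore no base is in capitals. The Gpr153 sequence is chr4:152273862-152274111 on the plus strand, and that of Gpr176 is chr2:118373420-118373669, printed on the minus strand, both in GRCm38.p6.
Gpr153: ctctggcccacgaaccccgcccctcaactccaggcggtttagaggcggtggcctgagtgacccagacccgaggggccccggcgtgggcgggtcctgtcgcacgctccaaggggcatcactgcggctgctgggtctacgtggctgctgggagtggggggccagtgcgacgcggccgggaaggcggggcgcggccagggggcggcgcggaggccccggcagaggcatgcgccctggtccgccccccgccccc
Gpr176: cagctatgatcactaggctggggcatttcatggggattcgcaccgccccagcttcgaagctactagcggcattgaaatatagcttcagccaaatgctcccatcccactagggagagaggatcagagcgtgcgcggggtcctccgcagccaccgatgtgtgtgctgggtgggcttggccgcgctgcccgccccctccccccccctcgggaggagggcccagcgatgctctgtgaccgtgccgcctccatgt
Windows before RefSeq starts were available here for 19 of the 23 members that passed. Gpr133 was among the members without a window and was not searched. TGACGTCA was found before any start of 0 of these 19, and in 508 (1.55%) of 32851 windows of 250 bases before RefSeq starts. TGACG was found before a start of 9 of the 19 members, beside 17.8% of all windows. Members with several starts had several windows, which makes a match likelier per member than per window. The 2 values are therefore not a like comparison. A missing match says only that these letters are not in the window.

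Gpr133 (Adgrd1, ENSMUSG00000044017), on the plus strand at chr5:129096750-129204599, rose after YKL-05-093. It is an adhesion receptor that couples to the stimulatory G protein and raises cAMP. The vehicle libraries had 1.14 and 1.10 RPKM (1.12 ± 0.0252), from 175 and 271 reads. The PTH libraries had 1.75 and 1.38 RPKM (1.56 ± 0.267), from 332 and 230 reads. The YKL-05-093 libraries had 2.48 and 2.94 RPKM (2.71 ± 0.327), from 441 and 535 reads. The groups did not overlap, and the order was vehicle, PTH and YKL-05-093. The YKL-05-093 mean was 2.42 times that of vehicle and the PTH mean 1.39 times. The log2 fold change was 1.20 for YKL-05-093 (SE 0.17, adjusted p = 0.0349, limma). For PTH it was 0.44 (SE 0.18, 95% interval 0.02 to 0.85, adjusted p = 0.347). The level after PTH was below that after YKL-05-093 by a log2 difference of −0.76 (SE 0.12, adjusted p = 0.000412, range over settings 8.55e-11 to 0.153), under 2-fold and not called. Without YKL-05-093 replicate 2 the change was 1.08 (SE 0.34, adjusted p = 0.151), in a fit whose spread came from the vehicle pair alone. The call was also lost with a level limit of 0.1 RPKM (adjusted p = 0.0566), with no limit (0.189), with a pseudocount of 1 (0.0774) and with the spread set by the mean value (0.155).

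**Figure D3:**
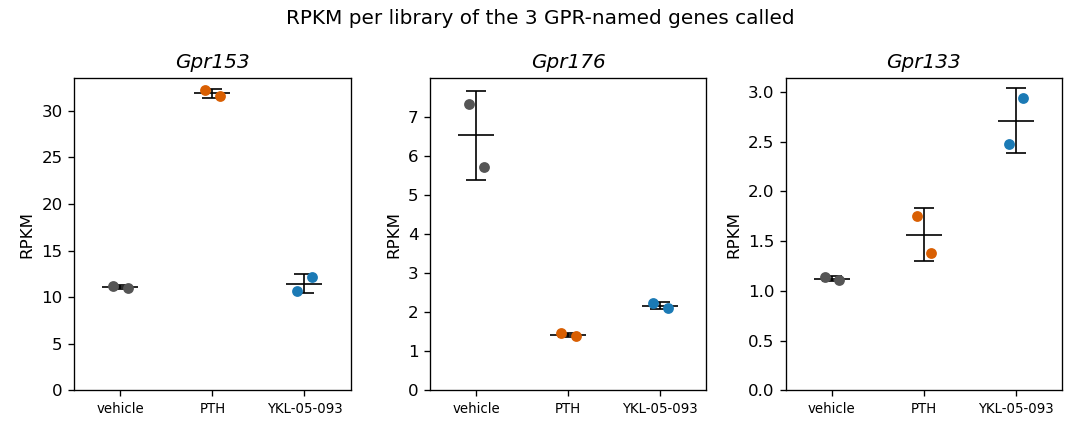
RPKM per library of Gpr153, Gpr176 and Gpr133, on linear axes from 0, with 2 points per group, the mean as a long bar and 1 SD as whiskers. Both PTH libraries of Gpr153 lie at 32.2 and 31.5 RPKM, the 4 treated libraries of Gpr176 lie between 1.39 and 2.23, and the YKL-05-093 pair of Gpr133 lies at 2.48 and 2.94.

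The other members were not called, and their intervals limit how far they could have moved. For PTH against vehicle, the log2 fold changes of 21 members lay between −0.67 for Gpr64 and 0.44 for Gpr133, and 19 of the 21 intervals stayed within 2-fold in either direction. Gpr64 had 0.910 and 0.861 RPKM with vehicle, 0.421 and 0.636 with PTH, and 0.608 and 0.594 with YKL-05-093. Both treated pairs of Gpr64 lay under the vehicle pair, and its adjusted p was 0.273 for PTH and 0.522 for YKL-05-093 (limma). For YKL-05-093 against vehicle, the 21 values ran from −0.49 for Gpr64 to 0.33 for Gpr19, and 21 of 21 intervals stayed within 2-fold. Gpr19 had 3.17 and 3.29 RPKM with vehicle, 3.91 and 3.81 with PTH, and 4.04 and 4.10 with YKL-05-093. Its treated pairs lay above the vehicle pair, with log2 fold changes of 0.25 (SE 0.15) and 0.33 (SE 0.15) and adjusted p of 0.587 and 0.643.

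Between PTH and YKL-05-093, adjusted p was under 0.05 with a change under 2-fold in further members, but not under every setting. Gpr125 was higher after PTH than after YKL-05-093 by 0.25 on the log2 scale (SE 0.07, adjusted p = 0.0234, limma), and its adjusted p ranged from 0.0139 to 0.776 over the settings tried. Gpr180 was higher by 0.29 (SE 0.08, adjusted p = 0.0412, range 0.0157 to 0.729), with 13.9 and 12.5 RPKM after PTH and 10.3 and 11.3 after YKL-05-093. In both genes the highest of these p-values came from 1 fit of all 6 libraries, which also holds the spread of the vehicle pair. The vehicle libraries of Gpr180, at 10.1 and 12.8 RPKM, spanned most of that range. Of the 22 members not called here, 21 had intervals within 2-fold in either direction.

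Groups whose libraries did not overlap were common among members and among all genes. After PTH, 11 of 23 members (47.8%) had both libraries above or below both vehicle libraries, 5 higher and 6 lower, beside 43.0% of the 14264 genes. After YKL-05-093 these were 10 of 23 (43.5%), 4 higher and 6 lower, beside 37.8%. Between PTH and YKL-05-093 they were 15 of 23 (65.2%), 9 higher and 6 lower after PTH, beside 50.0%. The first and second of these shares were near the background. The third was further from it, but rests on 23 genes, and whether it differs from the background was not tested. The median log2 fold change of the 23 members was −0.12 for PTH, −0.08 for YKL-05-093 and −0.03 between the treatments, beside −0.03, −0.04 and 0.01 over all genes.

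**Figure D4:**
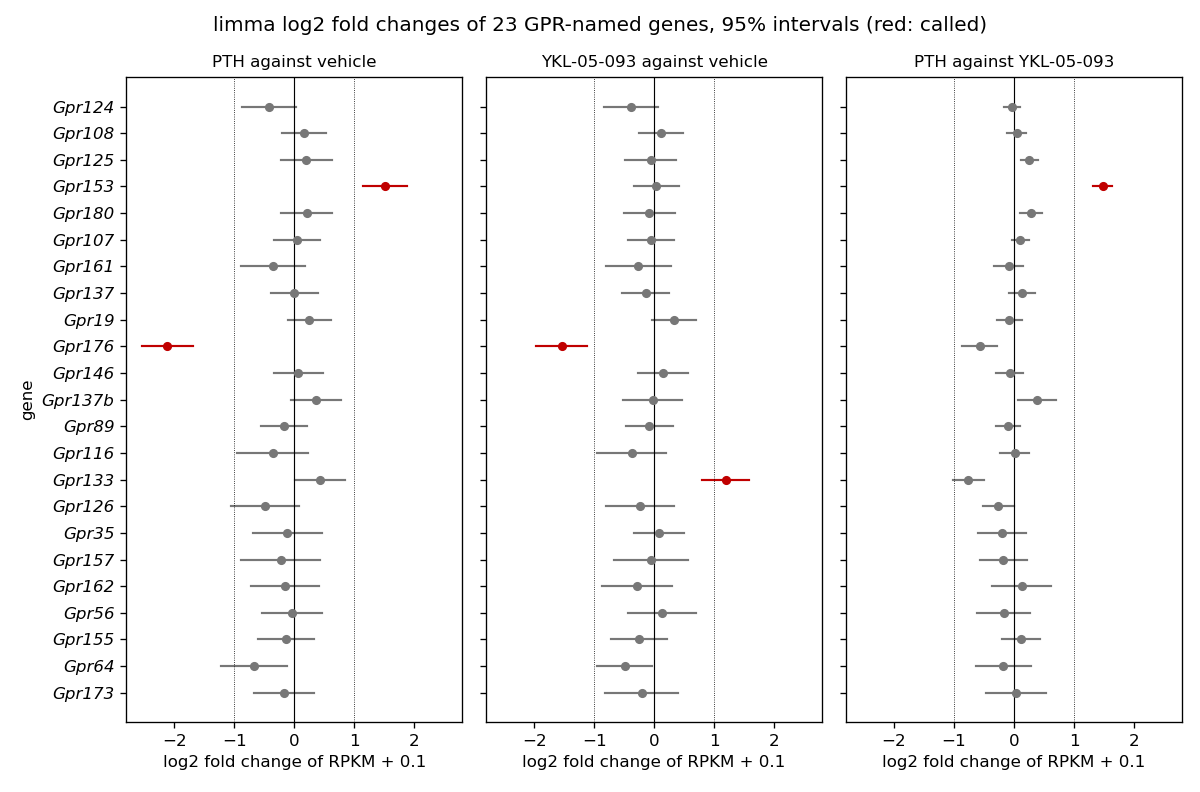
Log2 fold changes of RPKM + 0.1 for the 23 members in the 3 comparisons, with 95% intervals from limma, called genes in red and dotted lines at a 2-fold change. Gpr153 and Gpr176 are called for PTH, Gpr176 and Gpr133 for YKL-05-093, and Gpr153 between the treatments, where the intervals are narrower.

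Among the 17 rows under the limit with reads in every library of a group were Gpr39, Gpr135, Gpr141, Gpr85, Gpr137c, Gpr21, Gpr75, Gpr182, Gpr115, Gpr160, Gpr4, Gpr97, Gpr174 and Gpr98. Gpr39, a zinc-sensing receptor, had 14 and 15 reads with vehicle, 21 and 14 with PTH, and 9 and 9 with YKL-05-093. Gpr141, an orphan, had 11 and 7, 17 and 7, and 6 and 5 reads in the same order. When the limit was lowered to 0.1 RPKM, 31 members were tested, and the members called were Gpr153 and Gpr176 for PTH, Gpr176 for YKL-05-093 and Gpr153 between the treatments. PTH against YKL-05-093 then gave 0.63 for Gpr39 (adjusted p = 0.365, limma). The proton sensor Gpr4 had at most 5 reads in a library. At this depth a change in such genes could easily be missed. The highest value of a row under the limit was 0.350 RPKM, for Gpr18 in vehicle replicate 1, from 8 reads.

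Genes that work with these receptors were read from fixed lists. Arrestins and receptor kinases switch receptors off after activation. Of 8 genes, 5 passed (Arrb1, Arrb2, Adrbk1, Grk5 and Grk6) and 0 were called in any comparison, with a median log2 fold change of 0.08 for PTH and −0.06 for YKL-05-093, beside −0.03 and −0.04 over all genes. Of 5 proteins named for their association with GPR receptors, Gprasp1 and Gprin3 passed and 0 were called, with medians of −0.92 and −0.56. Gprin3 had 2.67 and 1.25 RPKM with vehicle, 0.403 and 0.609 with PTH, and 0.812 and 0.996 with YKL-05-093. The fit gave Gprin3 −1.69 for PTH (SE 0.37, adjusted p = 0.0746, limma) and −0.95 for YKL-05-093 (SE 0.35, adjusted p = 0.459). Of 13 adhesion receptors with other names, Cd97, Lphn1 and Lphn2 passed, 0 were called, and Emr4 was at 0, with medians of −0.44 for PTH and −0.57 for YKL-05-093.

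Calls were made for 3 receptors with other symbols. They rest on the main fit alone, as the alternative settings were not read for genes of the lists. Among the 5 genes Gprc5a to Gprc5d and Gprc6a, class C orphans and an amino acid sensor, 3 passed and 1, Gprc5c, was called, for YKL-05-093 (beside 0.666% of all genes), with medians of 0.71 for PTH and 0.77 for YKL-05-093. It had 11.9 and 10.7 RPKM with vehicle, 25.1 and 19.2 with PTH, and 24.0 and 29.1 with YKL-05-093, so both treated pairs lay above vehicle. It rose after YKL-05-093 by 1.22 (SE 0.18, adjusted p = 0.0409, limma), while its value for PTH was 0.95 (SE 0.19, adjusted p = 0.0589). Of 11 receptors for lysophospholipids, 7 passed and 5 were not called in any comparison. For PTH 2 of the 7 were called (beside 1.9%), for YKL-05-093 1 (beside 0.666%) and between the treatments 1 (beside 1.21%), with medians of 0.06 and 0.01 for PTH and YKL-05-093. S1pr1, a receptor for sphingosine 1-phosphate, had 17.0 and 16.5 RPKM with vehicle, 46.6 and 43.4 with PTH, and 42.5 and 43.3 with YKL-05-093. It rose by 1.42 after PTH (SE 0.16, adjusted p = 0.00665) and by 1.35 after YKL-05-093 (SE 0.15, adjusted p = 0.0218). Lpar3, a receptor for lysophosphatidic acid, had 3.35 and 3.80 RPKM with vehicle, 1.82 and 1.62 with PTH, and 3.09 and 4.16 with YKL-05-093. It fell by 1.01 after PTH (SE 0.18, adjusted p = 0.0374), and the level after PTH was also below that after YKL-05-093 (log2 difference −1.02, SE 0.16, adjusted p = 0.00053).

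Marker genes were read to check the cells, also in the main fit alone. Of 11 markers of osteoblasts and osteocytes 9 passed, with a summed level of 533 to 771 RPKM in the 6 libraries. Col1a1 alone had 259 to 430 RPKM. The late osteocyte genes Sost and Mepe had at most 3 and 4 reads in a library, and Dmp1 had 0.376 to 1.15 RPKM. Of the 9, 2 were called higher after PTH (Pdpn and Bglap), beside 1.09% of genes, and 1 lower (Sp7), beside 0.813%. For YKL-05-093 0 were called. Between the treatments Bglap was called higher after PTH, beside 0.744% of genes, and Sp7 lower, beside 0.47%. Pth1r had 52.1 and 63.4 RPKM with vehicle, 38.5 and 33.4 with PTH, and 61.4 and 70.7 with YKL-05-093, so both PTH libraries were the lowest. Its log2 difference was −0.68 for PTH against vehicle (SE 0.18, adjusted p = 0.15, limma) and −0.88 for PTH against YKL-05-093 (SE 0.08, adjusted p = 2.7e-06), both under 2-fold and not called. Of 5 macrophage and leukocyte markers Cd68 alone passed, with a summed level of 3.83 to 4.51 RPKM, and Ptprc, Csf1r, Emr1 and Itgam had 0 to 14 reads in a library. Of 4 neural markers 0 passed and Snap25 was at 0.

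Of 4 endothelial markers Kdr alone passed, and the summed level of the list was 0.724 to 1.14 RPKM with vehicle, 1.14 to 1.44 with PTH and 1.95 to 2.17 with YKL-05-093. Kdr had 0.582 and 0.476 RPKM with vehicle, 0.812 and 1.06 with PTH, and 1.72 and 1.43 with YKL-05-093, the same order of groups as for Gpr133, and it rose after YKL-05-093 by 1.42 (SE 0.20, adjusted p = 0.0362, limma). The defining marker Cdh5 was at 0 in all 6 libraries, and Pecam1 and Tek did not follow that order. Pecam1 had 7 and 6 reads with vehicle, 12 and 11 with PTH, and 8 and 5 with YKL-05-093. Tek had 43 and 30, 25 and 27, and 39 and 50 reads in the same order. All libraries came from a single cell subclone of Ocy454, and whether any endothelial cells were present was not tested.

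For 10 of the 23 members an exon overlaps another annotated gene, on the opposite strand for all but Gpr176. The libraries were directional, but the strand setting of the counting is not given in the sources used here, so reads of an opposite-strand partner may be included for Gpr124, Gpr107, Gpr137, Gpr19, Gpr89, Gpr126, Gpr155, Gpr64 and Gpr173.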

How the data were processed

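RNA of 6 Ocy454 libraries, 2 each for vehicle, PTH and YKL-05-093, was sequenced after ribosomal RNA depletion and directional library construction. The authors used CASAVA 1.7 (per the labels), mapped reads with STAR (mm10/GRCm38), counted per Ensembl gene with HTSeq, and deposited 1 linear RPKM value per gene and library, without pooling of replicates. How gene length was taken is not given in the sources used here. The deposited RPKM values of single libraries and of the series table were equal.

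Whole reads were recovered from the steps between RPKM values with Python 3.11.15. All 6 values came out whole (relative tolerance 1e-05) for all 26214 genes above 0, and the reads add up to 99.7% of the recovered totals. The recovered reads served for the depth, the floor of 3 reads and the model of the spread. In 35.9% of these genes the recovered length equals that of the merged GENCODE vM21 exons, and 92 of 93 rows have a GENCODE vM21 identifier. Promoter windows are from RefSeq.

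Tests were run in R 4.3.3 with limma 3.58.1. The values were log2(RPKM + 0.1) of genes that reached 0.5 RPKM in 2 or more libraries. Each comparison was a separate fit of its 4 libraries, in which the prior variance followed the mean log2 reads, and p-values were adjusted by Benjamini-Hochberg over all genes tested. The scripts were tested on simulated data. The authors' own criteria of a 2-fold change and an FDR of 0.05 were kept. The deposited unit is RPKM, so no count test was the main one and edgeR was not run. limma-voom on the recovered reads, an alternative, called 286 genes for PTH, 96 for YKL-05-093 and 194 between the treatments, against 271, 95 and 173.

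The members, lists, tests and settings were chosen with earlier results of these data known, including the numbers of genes called under several settings. Every member that passed the level limit is named with its level, members called in any comparison are given per library, members under the limit are named where all libraries of a group had over 3 reads (some are not reported here), and genes of the lists are counted and named where called. Exceptions, chosen after their values were seen, are the rows at 0, Gpr18 and the list and marker genes named without a call. Classes were assigned from general knowledge and current symbols. Alternatives covered the pseudocount, level limit, scaling, model of the spread, call rule, a joint fit, voom, a replicate block and leaving out each library. They were read for the members and for the counts over all genes, not for single list or marker genes.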

Additional observations from a re-analysis of the deposited data

How the results depend on the processing

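Gpr153 after PTH was called under 15 of 16 settings (log2 fold change 1.44 to 1.54, adjusted p 2.52e-53 to 0.0575 with limma, the lowest from a fit without vehicle replicate 1), and Gpr176 also under 15 of 16 (−2.29 to −1.63). Between the treatments Gpr153 was called under 16 of 16. The 16 settings include the main fit and the same fit without the fold limit, where a main call cannot be lost. For YKL-05-093, Gpr176 was called under 14 of 16 settings and Gpr133 under 11 of 16 (adjusted p 9.28e-05 to 0.189). With no level limit 0 of 79 members were called for PTH and 0 of 77 for YKL-05-093, and 0 of all genes in either. For PTH an unadjusted p under 0.05 (limma) was found in 3 of the 79, beside 2336 of 25085 genes. For YKL-05-093 it was found in 4 of the 77, beside 1740 of 24944 genes. For YKL-05-093, 1 member was called with a pseudocount of 1 and 1 with a limit of 0.1 RPKM. With the spread set by the mean value 0 of 23 members were called. The unadjusted p was then under 0.05 (limma) in 2 of the 23, beside 1206 of 14255 genes. Without YKL-05-093 replicate 2 the log2 fold change of Gpr133 was 1.08. With no limit on the fold change 5 of 23 members differed between the treatments, beside 1416 of 14255 genes. These members were Gpr125, Gpr133, Gpr153, Gpr176 and Gpr180. With each library left out, the Gpr153 value for YKL-05-093 ranged from −0.053 (without YKL-05-093 replicate 2) to 0.13, a change of sign. The cause was not tested. Of 69 member values 27 changed sign under some alternative, among them 0 of 5 called values.

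Where a library was left out, its group kept 1 library, which was assumed to vary like the pair of the other group, so the adjusted p then follows the spread of that pair.

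Over all genes, calls for PTH were 160 with the spread on the mean value, against 271, and 191 to 707 with a library left out. For YKL-05-093, against 95, they were 173 in a joint fit, 6 with the spread on the mean value, 56 with a pseudocount of 1, 52 with a limit of 0.1 RPKM and 88 to 374 with a library left out. Between the treatments, against 173, they were 101 in a joint fit, 98 with a pseudocount of 1, 1416 with no fold limit and 134 to 265 with a library left out. The largest counts came without vehicle replicate 2 for both treatments.

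Over the tested genes, deviations by replicate number were not shared between groups (correlations −0.034, −0.054 and −0.049). The share of mitochondrial reads was higher in replicate 2 of each group. In replicates 1 and 2 it was 11.6 and 15.0% with vehicle, 13.7 and 16.5% with PTH, and 13.1 and 15.8% with YKL-05-093. Whether the replicate numbers mark paired cultures is not shown by these values. With the replicate number as a block the members called were 2, 2 and 1, as without it, and calls over all genes were 435 for PTH, 212 for YKL-05-093 and 195 between the treatments. A limit of 0.1 or 1 RPKM left 31 or 18 members above background in place of 23, and 23 rather than 31 rows had over 10 in place of 3 reads in all libraries. Depth leaves changes in the 70 rows under the limit largely undetectable.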
